A study of Mus musculus with 2 samples.

Results

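A set of 10 genes that act at the exit from the cell cycle were read out by RNA-seq of sorted GFP-positive cells of the embryonic mouse pancreas. They are the Cip/Kip inhibitors Cdkn1a, Cdkn1b and Cdkn1c, the D cyclins Ccnd1, Ccnd2 and Ccnd3, the p53 gene Trp53, its regulator Mdm2, and the growth-arrest genes Btg2 and Gadd45a. These 10 of the 23284 symbols in the deposited count tables were taken by name, with no threshold on a measured value. Earlier results of these data were known when they were chosen. All 10 rows were present in both tables. The set holds brakes on the cycle (Cdkn1a, Cdkn1b, Cdkn1c, Btg2, Gadd45a, Trp53) together with genes that promote it (the D cyclins, and Mdm2 through p53), so it is not a list with one direction.

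The series holds 2 libraries of 1 group. Both came from NGN3-EGFP embryos of a mixed strain labelled C57BL6 at e15.5, whose entire pancreata were dissociated and sorted for GFP. The labels do not say how the reporter was built, whether embryos were pooled, or whether replicates 1 and 2 are of different litters, and their spread may be technical. No group without GFP and no other stage was analysed here, and the levels below are therefore not a change against anything. Counted reads numbered 12495143 in replicate 1 and 12043734 in replicate 2. RNA came from bulk sorted cells, so fewer cells with a transcript and less transcript per cell cannot be told apart. Markers describe the sorted cells but cannot test the sort without cells that lack GFP. In both libraries 10 of 10 endocrine genes reached 1 CPM, a read count scaled to a common library total, as did 45.7% of all symbols. Each count of listed genes at 1 CPM below is to be read beside that share. The endocrine medians were 656 and 571 CPM in replicates 1 and 2, and Chgb, a granin, was the highest. Of 8 genes each, 7 duct, 5 acinar and 5 mesenchymal genes reached 1 CPM in both, against 1 endothelial, 2 immune and 1 erythroid gene. By mean CPM the highest of each list were Krt7, Ctrb1, Col1a2, Cdh5, Laptm5 and Hbb-y. Ctrb1, a digestive enzyme gene of acinar cells, had 1321 and 986 CPM in replicates 1 and 2, a higher mean than every endocrine marker but Chgb, which had 5381 and 5786 CPM. Cdh5, with 194 and 2 reads, and Hbb-y, with 55 and 0, missed 1 CPM in replicate 2, and the endothelial and erythroid genes that reached it in both were Eng and Hba-x, named after their values were seen.

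Cells leave the cycle in G1, when cyclin D bound to Cdk4 or Cdk6 no longer inactivates the retinoblastoma proteins and the E2F factors stay repressed. Cip/Kip proteins bind and block cyclin-kinase complexes, and Cdkn1a is also the best known transcriptional target of p53. In the pancreas, Neurog3 starts the endocrine programme and is known in the mouse to slow the division of progenitors, in part through Cdkn1a. Most control of p53 itself, of p27 and of the D cyclins acts on the protein, which read counts do not show.

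Cdkn1a, which encodes p21, was the most abundant of the 10 genes. Replicate 1 held 8242 reads of Cdkn1a, or 663 CPM, with an exact Clopper-Pearson 95% interval of 648 to 677, and replicate 2 held 8566 reads, or 708 CPM, with an interval of 693 to 723. The libraries were close, 1.07-fold apart, and the gene ranked 110 of 23284 by mean CPM. Scaled to exon length it had 244 and 261 CPM per kb of exon (RPKM), with a mean of 252 ± 11.9 RPKM (SD, n = 2), above 99.1% of the 12150 genes with at least 10 reads and a known exon length. The genes with levels nearest to it over both libraries were Hnrnpu, Eif4a2, Srsf2 and Papss2, at Euclidean distances of 0.02, 0.03, 0.06 and 0.11 in log2 CPM among 23283 other symbols. With 2 libraries this likeness is one of level and says nothing of shared control.

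Cdkn1a has 2 annotated starts in RefSeq, 2790 bases apart, and counts per gene do not separate the transcripts of the starts. Its upstream window is shown because it holds the closest match to a p53 binding site among the windows searched. The window spans chr17:29090729-29091028 on the plus strand of GRCm38.p6, as given by RefSeq, from 250 bases before the upstream start to 50 bases from it on. Capitals mark the paired p53 decamers.

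Cdkn1a upstream window: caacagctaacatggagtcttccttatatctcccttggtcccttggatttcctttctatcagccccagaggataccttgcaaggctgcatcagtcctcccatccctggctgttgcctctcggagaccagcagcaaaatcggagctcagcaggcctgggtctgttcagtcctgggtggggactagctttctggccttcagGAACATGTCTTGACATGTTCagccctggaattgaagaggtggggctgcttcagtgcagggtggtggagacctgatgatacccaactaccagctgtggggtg

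The search took a pair of 10-base p53 decamers with 0 to 3 bases between them, in which the C and the G of each core were kept, and counted the other bases that departed from the consensus. The decamer consensus reads the same on either strand, so both strands were covered, and no other motif was searched. The site above had 1 such mismatch. It lay 51 to 32 bases before the upstream start, and its end was 2822 bases before the other start. Of all 32851 RefSeq windows of the same length, 72, or 0.219%, held a pair with at most 1 mismatch. RefSeq windows were matched for 7 of the 10 genes, 9 windows in all, and Cdkn1c, Ccnd1 and Ccnd2 had none and were not searched. The best pairs in the single windows of the p53 gene and of 3 genes known as p53 targets are set beside it, with the decamers in capitals and any spacer in lower case.

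Cdkn1a, upstream start: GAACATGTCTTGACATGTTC

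Trp53: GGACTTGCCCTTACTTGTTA

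Mdm2: GGGCGTGCGCgcGCGCACGCCC

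Btg2: GGGCGAGCTGgcGGGCGGGGCG

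Gadd45a: CTGCATGCAAatgAAGCTGGACC

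These had 3 mismatches in Trp53, 4 in Mdm2, 6 in Btg2 and 6 in Gadd45a. The window of Cdkn1b also had 3, the one at the other start of Cdkn1a 6, and those of Ccnd3 6 and 7. Pairs with at most 3 mismatches occurred in 5.76% of all windows, with at most 4 in 17.8% and with at most 6 in 62.3%. A match in letters is not evidence of binding. Sequence outside these windows was not searched, so a poor match here does not mean that a gene lacks a p53 site.

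**Figure D1:**
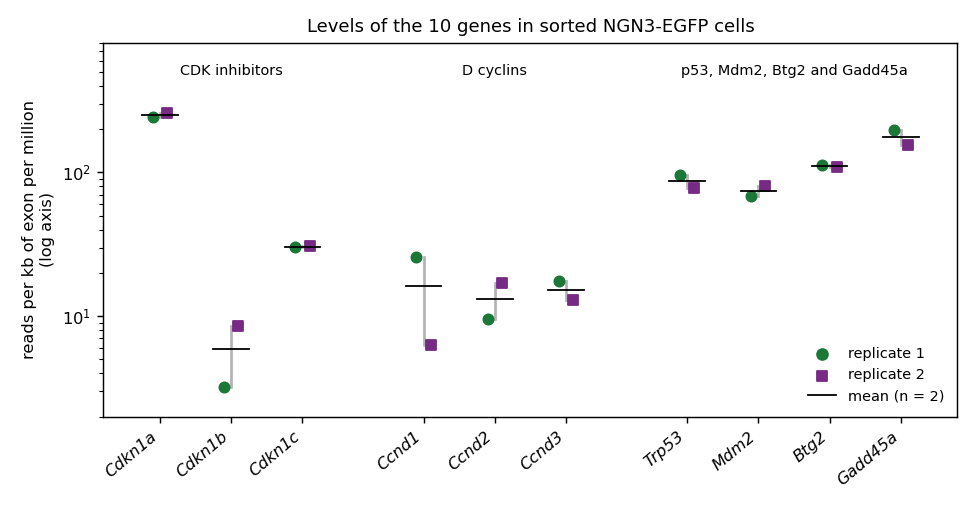
Level of each of the 10 genes in RPKM (log axis), by role, in replicate 1 (circles) and replicate 2 (squares), with the mean of the 2 libraries as a bar. Cdkn1a lies highest at 244 and 261 RPKM, and Ccnd1 and Cdkn1b have the widest gaps between the libraries.

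The remaining Cip/Kip genes were far lower. Cdkn1c, the imprinted gene of p57, which in the mouse limits the division of pancreatic progenitors, had 732 and 717 reads, or 58.8 and 59.3 CPM in replicates 1 and 2. Its libraries were almost equal, at 30.4 ± 0.16 RPKM (SD, n = 2). Cdkn1b, which encodes p27, a keeper of quiescence in new beta cells, had 181 reads in replicate 1 and 473 in replicate 2. That is 14.5 CPM (exact interval 12.5 to 16.8) and 39.1 CPM (35.7 to 42.8), intervals that did not overlap. Per kb of exon Cdkn1b had the lowest mean of the 10 genes, with 3.20 and 8.59 RPKM, though Ccnd1 was lower in replicate 2. The median of all 12150 genes was 7.18 and 7.39 RPKM. Antisense transcripts overlap 273 exon bases of Cdkn1a and 589 of Cdkn1c, and none was annotated over Cdkn1b.

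Within each library Cdkn1a dominated its family. Per kb of exon it made up 87.9% of the Cip/Kip reads in replicate 1 and 86.9% in replicate 2, Cdkn1c 10.9% and 10.2%, and Cdkn1b 1.15% and 2.87%. Cdkn1a stood above Cdkn1c by 8.02-fold and 8.51-fold, and above Cdkn1b by 75.4-fold and 30.2-fold. The order of the 3 inhibitors was the same in both libraries, but an exact test over 2 libraries cannot give a p below 0.5. Of the INK4 inhibitors, which bind Cdk4 and Cdk6 alone, 0 of 4 reached 1 CPM in both libraries. Cdkn2b had 92 reads in replicate 1 and 0 in replicate 2, Cdkn2c 3 and 6, and Cdkn2d 0 and 7. Cdkn2a, which encodes p16 and p19Arf, had none, so that by the limit of 3 counts a level of 0.241 or 0.248 CPM could be missed. Intervals and limits cover counting error only.

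**Figure D2:**
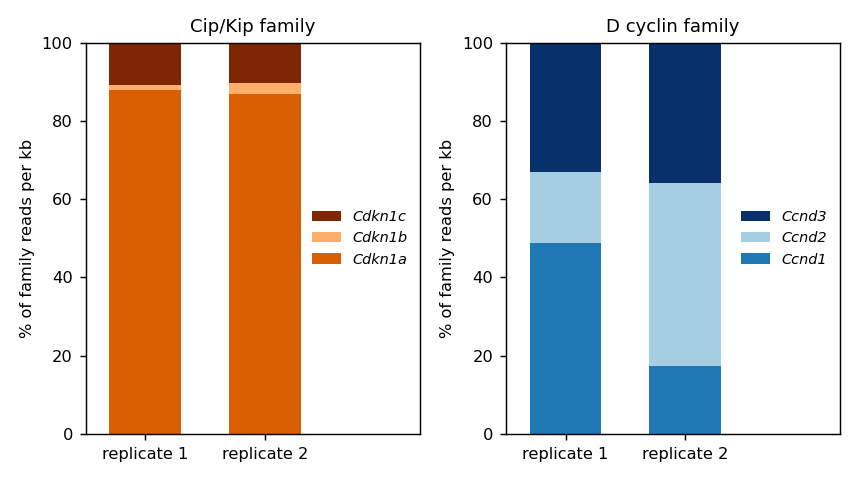
Share of each gene in the summed reads per kb of exon of its family, in percent, for the Cip/Kip inhibitors (left) and the D cyclins (right) in each library. Cdkn1a takes 87.9% and 86.9% of its family, while the share of Ccnd1 is 48.9% in replicate 1 and 17.4% in replicate 2.

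The D cyclins had similar, modest means per kb of exon, and the one that led differed between the libraries. Ccnd1 had 1203 reads in replicate 1 and 285 in replicate 2, or 96.7 CPM (exact interval 91.3 to 102) and 23.6 CPM (20.9 to 26.5). Ccnd2, the main D cyclin of dividing beta cells in the mouse, went the other way, with 795 reads, or 63.9 CPM (59.5 to 68.5), in replicate 1 and 1376 reads, or 114 CPM (108 to 120), in replicate 2. Ccnd3 was again higher in replicate 1, at 42.8 CPM (39.3 to 46.6), than in replicate 2, at 31.8 CPM (28.7 to 35.2). An antisense neighbour, Bysl, overlaps 361 exon bases of Ccnd3 and had 374 and 42 reads. Another, Gm43126, overlaps 372 exon bases of Ccnd2 and had no matching symbol among those counted. Per kb of exon the order was Ccnd1, Ccnd3, Ccnd2 in replicate 1, at 25.9, 17.5 and 9.52 RPKM, but Ccnd2, Ccnd3, Ccnd1 in replicate 2, at 16.9, 13.01 and 6.30 RPKM. No D cyclin can therefore be named as the leading one from these data. Ccnd1 made up 48.9% of the family in replicate 1 and 17.4% in replicate 2, Ccnd2 18.0% and 46.8%, and Ccnd3 33.1% and 35.9%. The order also depends on gene models, since the full annotation lengthens the exons of Ccnd3 to 8775 bases, against 2447 in the basic transcript set, and its share is then 15.2% and 17.5%.

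Besides Ccnd1, markers of several other cell types differed between the libraries. Such gaps were common, since 48.2% of all genes tested were over 2-fold apart. The share was 42.9% for genes with a mean of 10 to 100 CPM, where Ccnd1 lies. All 8 mesenchymal markers were higher in replicate 1, their sum was 422 CPM there, against 138 CPM in replicate 2, and each had at least 1 read in both. Summed immune markers were 56.9 and 12.4 CPM, and summed endothelial markers 29.3 and 13.97 CPM. By the exact binomial test 5 of 6 acinar genes tested were higher in replicate 1, with a list sum of 1594 and 1197 CPM. So were 5 of 7 duct genes, with 729 and 659 CPM, against 41.7% of all genes tested. Krt7, the highest duct gene, and 1 acinar gene were higher in replicate 2. Of 10 endocrine genes, 5 were higher in replicate 1 and 4 in replicate 2. Single endothelial and immune markers, named after their values were seen, went both ways. Cdh5 had 194 and 2 reads, Eng 168 and 23, Laptm5 472 and 43 and Cd68 229 and 93, while Esam had 0 and 54 and Sox17 0 and 80. Others were at or near 0, with no reads of Fcer1g, 0 and 1 of Ptprc, and 1 and 0 of Kdr. The part of such cells in the Ccnd1 reads was not tested. Exons of Ccnd1 also overlap 818 exon bases of an antisense neighbour listed as Oraov1, which had 133 and 242 reads. Of the Ccnd1 words of 25 bases, 78.6% were found in no other gene. Strand handling was not given in the sources used here, so reads of overlapping genes may be mixed.

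Summed over each family, Cip/Kip transcripts outnumbered D cyclin transcripts per kb of exon 5.23-fold and 8.24-fold in replicates 1 and 2. Cdkn1a made up 87.9% and 86.9% of the Cip/Kip sum, so this excess is mainly that of Cdkn1a. The D cyclin sum was 52.9 and 36.3 RPKM, while Cdkn1c had 30.3 and 30.5 RPKM and Cdkn1b 3.20 and 8.59 RPKM. Of the kinases that D cyclins activate, Cdk4 had 75.8 and 70.6 RPKM, a level above each D cyclin, while Cdk6, named after its values were seen, had 6 reads in replicate 1 and 57 in replicate 2. Among the other G1/S genes, Ccna2 averaged 9.56 ± 3.37 RPKM, Cdk2 8.49 ± 10.02 RPKM and Ccne1 2.14 ± 0.33 RPKM (SD, n = 2 each), and 4 of the 6 in that list reached 1 CPM in both libraries. All 3 retinoblastoma genes did, Rb1 at 13.7 ± 3.28 RPKM, Rbl2 at 10.5 ± 2.34 RPKM and Rbl1 at 1.52 ± 0.71 RPKM. Of the E2F factors 7 of 8 did, led by E2f4 at 29.1 ± 16.4 RPKM and E2f6 at 21.9 ± 8.43 RPKM, both mainly repressors, ahead of E2f3 at 8.22 ± 7.80 RPKM and E2f5 at 5.73 ± 1.34 RPKM.

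Trp53 and Mdm2 were expressed at levels that did not separate. Trp53 had 2248 reads, or 181 CPM (exact interval 173 to 188), in replicate 1 and 1752 reads, or 145 CPM (138 to 152), in replicate 2. Mdm2, the ubiquitin ligase that degrades p53 and is itself induced by p53, had 2700 reads, or 217 CPM (209 to 225), and 3054 reads, or 252 CPM (244 to 262). Per kb of exon Trp53 was the higher in replicate 1, at 96.7 against 69.0 RPKM for Mdm2, and the lower in replicate 2, at 77.5 against 80.3 RPKM. With the exons of the full annotation both were lower, Trp53 at 44.7 and 35.8 RPKM, a mean of 40.2 against 87.1, and Mdm2 at 42.7 and 49.7 RPKM, a mean of 46.2 against 74.6. The Trp53 level is also uncertain because a pseudogene shares 467 of its 25-base words and only 75.0% are its own. Of 9 p53 relatives and other regulators 7 reached 1 CPM in both libraries. They were led by Usp7, a deubiquitinase of Mdm2 and p53, at 47.5 ± 18.4 RPKM, the p53-induced phosphatase gene Ppm1d at 29.2 ± 24.95 RPKM, Mdm4 at 12.5 ± 1.77 RPKM and the checkpoint kinase gene Chek1 at 6.92 ± 3.63 RPKM (SD, n = 2 each).

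Btg2 and Gadd45a, which are induced by p53 and by other stress and differentiation signals, followed Cdkn1a in level per kb of exon, while by CPM Mdm2 lay between them. Btg2, an antiproliferative adaptor of mRNA deadenylation, had 3832 reads, or 308 CPM (exact interval 298 to 318), in replicate 1 and 3619 reads, or 299 CPM (290 to 309), in replicate 2. Its libraries overlapped within counting error, and its mean was 111 ± 2.29 RPKM (SD, n = 2). Gadd45a, a stress protein of growth arrest and DNA repair, had 3009 reads, or 242 CPM (233 to 251), in replicate 1 and 2290 reads, or 189 CPM (182 to 197), in replicate 2, the lower one. Per kb of exon it came second of the 10 genes, at 198 and 155 RPKM. With the full annotation it had 137 and 107 RPKM, so that in replicate 2 it was below Btg2, which had 112 and 109 RPKM. An antisense neighbour, E230016M11Rik, overlaps 238 exon bases of Gadd45a and had 4 and 107 reads.

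Each of them was the highest member of its own family. Of the BTG and TOB genes 4 of 6 reached 1 CPM in both libraries, and Btg2 was followed by Tob1 at 61.4 ± 29.2 RPKM, Btg1 at 28.6 ± 6.62 RPKM and Tob2 at 23.5 ± 3.05 RPKM (SD, n = 2 each). No read of Btg3 or Btg4, both named after their values were seen, was counted. All 3 GADD45 genes reached it, with Gadd45g at 67.6 and 25.7 RPKM and Gadd45b at 3.87 and 1.14 RPKM in replicates 1 and 2.

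**Figure D3:**
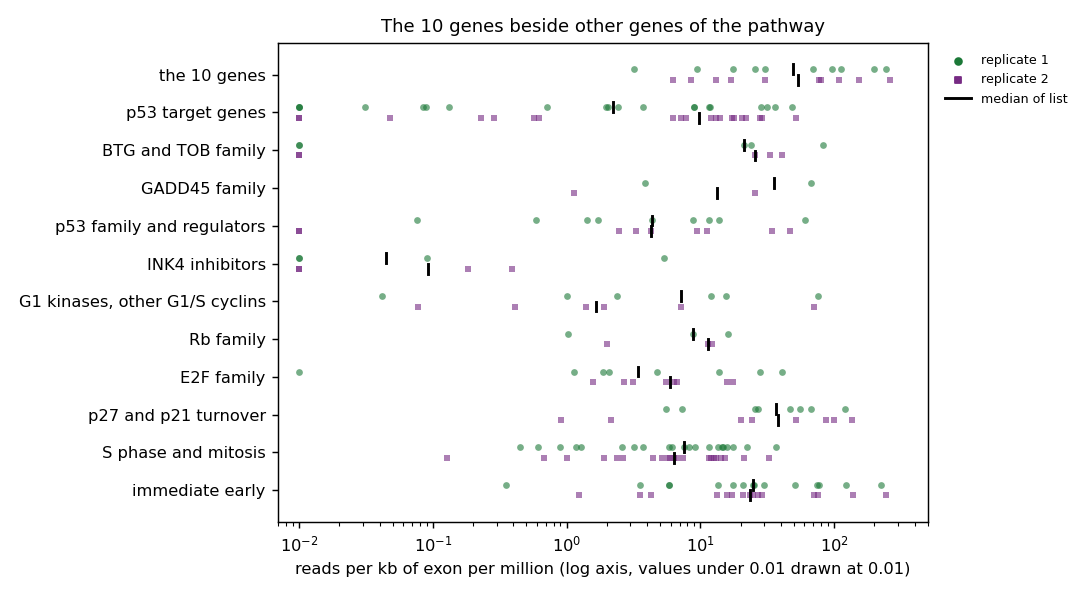
RPKM (log axis) of the 10 genes and of other genes of the pathway, 1 row per list, in replicate 1 (circles) and replicate 2 (squares), with list medians as bars. The 10 genes are left out of the other rows, values under 0.01 are drawn at 0.01, and the genes of S phase and mitosis all lie at or under 36.7 RPKM.

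Cdkn1a, Gadd45a, Btg2 and Mdm2 were the 4 highest of 24 p53 target genes per kb of exon of the basic transcript set. With the full annotation Mdm2 had 42.7 and 49.7 RPKM, and targets outside the 10 genes were not rescaled. The other 20 had medians of 2.24 RPKM in replicate 1 and 9.85 RPKM in replicate 2. Of them 12 reached 1 CPM in both libraries, against 45.7% of all symbols. Some of these 20 are named after their values were seen. Ei24 was the highest, at 48.4 and 52.1 RPKM, and Bax, the apoptosis effector, had 28.6 and 27.9 RPKM. Bbc3 (Puma) had 16 and 5 reads, Pmaip1 (Noxa) 3 and 0 and Fas none, so these genes of cell death were far below Bax. Eda2r, with 5 reads in replicate 1 and 361 in replicate 2, and Xpc, with 6 and 318, were the furthest apart. Of the 16 with at least 10 reads, 9 were over 2-fold apart, against 48.2% of all genes tested.

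Genes of S phase and mitosis were lower than most of the set. Of 21 such genes 19 reached 1 CPM in both libraries, with medians of 7.51 and 6.37 RPKM in replicates 1 and 2. The highest means were those of Tyms at 23.1 ± 13.5, Mcm3 at 21.3 ± 21.8, Rrm1 at 18.7 ± 5.04 and Mcm4 at 17.9 ± 4.85 RPKM (SD, n = 2 each). In both libraries all 21 lay below Cdkn1a, Gadd45a, Btg2, Trp53 and Mdm2, and 19 lay below Cdkn1c. Only 7 lay below Cdkn1b, and 9, 13 and 15 below Ccnd1, Ccnd2 and Ccnd3. Components of the ligases that turn over p27 and p21 all reached 1 CPM in both libraries, 8 of 8, as did 45.7% of all symbols. They were led by Skp1a at 128 ± 11.4, Cul4a at 77.98 ± 31.0, Ddb1 at 77.6 ± 14.1 and Rbx1 at 39.6 ± 17.9 RPKM.

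Immediate early genes, which respond to dissociation and sorting as well as to growth signals, included genes about as abundant as Cdkn1a, Btg2 and Gadd45a. Egr1 had 224 and 245 RPKM, Fos 77.4 and 138, Jun 122 and 76.2, and Dusp1 75.0 and 71.0 RPKM in replicates 1 and 2, and 14 of 15 genes of that list reached 1 CPM in both libraries. Summed over the list they came to 2291 and 2296 CPM. Cdkn1a, Btg2 and Gadd45a are also inducible by stress, and the part of cell handling in their levels was not tested.

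Among the 10 genes levels per kb of exon fell into steps, and only some neighbours were set apart. Cdkn1a, Gadd45a, Btg2 and Trp53 followed each other with ranges over the 2 libraries that did not overlap, while those of Trp53 and Mdm2 did. With the full annotation the ranges of Gadd45a and Btg2 overlapped as well. Cdkn1c lay below Mdm2 and above each D cyclin without overlap. The D cyclins could not be ordered, with ranges of 6.30 to 25.9 RPKM for Ccnd1, 13.01 to 17.5 for Ccnd3 and 9.52 to 16.9 for Ccnd2. Cdkn1b, at most 8.59 RPKM, lay below Ccnd2 and Ccnd3 in both libraries, while its range overlapped that of Ccnd1. With 2 libraries a range is a weak measure of spread.

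All 10 genes reached 1 CPM in each library, as did 45.7% of all 23284 symbols. Their median was 49.7 RPKM in replicate 1 and 54.0 RPKM in replicate 2. The 12150 genes with at least 10 reads and an exon length had medians of 7.18 and 7.39 RPKM. The 10 genes were chosen with earlier results of these data known, so neither comparison tests whether they are unusually high. A two-sided exact binomial test set the reads of a gene in replicate 1 against those in replicate 2, adjusted by Benjamini-Hochberg over 13416 genes with at least 10 reads, which compares these libraries and not conditions. It called 8 of the 10 genes, against 85.8% of all genes tested, so that count does not set them apart. Ccnd1, Ccnd3, Gadd45a and Trp53 were higher in replicate 1, a direction taken by 41.7% of all genes tested, and Ccnd2, Cdkn1b, Mdm2 and Cdkn1a were lower there, against 44.1%. Btg2 and Cdkn1c were not called, with adjusted p = 0.232 and 0.906 by that exact test, and log2 ratios of replicate 1 over replicate 2 of 0.04 (interval -0.02 to 0.11) and -0.01 (-0.16 to 0.14).

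**Figure D4:**
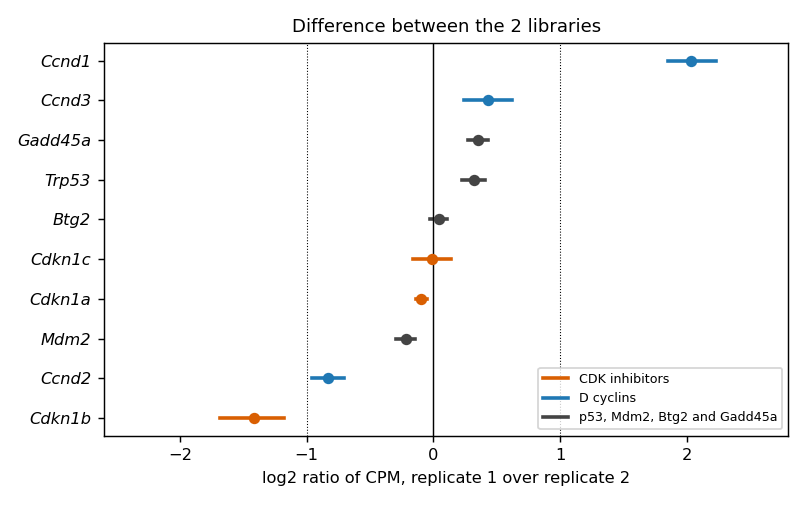
Log2 ratio of CPM, replicate 1 over replicate 2, of each of the 10 genes, with exact 95% binomial intervals for counting error; dotted lines mark 2-fold. Ccnd1 at 2.03 and Cdkn1b at -1.42 lie beyond 2-fold, and the other 8 genes lie within it.

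Ccnd1 was 4.08-fold higher in replicate 1, a log2 ratio of 2.03 (exact interval 1.85 to 2.23), and Cdkn1b had a log2 ratio of -1.42 (-1.68 to -1.18), which is 2.67-fold lower in replicate 1. By the same exact test their adjusted p were 1.83e-127 and 2.42e-32. These 2 of the 10 genes were over 2-fold apart, against 48.2% of all genes tested. Ccnd2 followed, with -0.83 (-0.96 to -0.70). Spread between libraries depends on level. The 5 genes with a mean of 100 to 1000 CPM, Cdkn1a, Btg2, Mdm2, Gadd45a and Trp53, were all within 1.28-fold, and 0 of 5 were over 2-fold apart, against 12.2% of the 2269 genes in that range. Of the 5 genes at 10 to 100 CPM, 2 were, against 42.9% of 6762 genes. Cdkn1c was the closest of those 5.

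**Figure D5:**
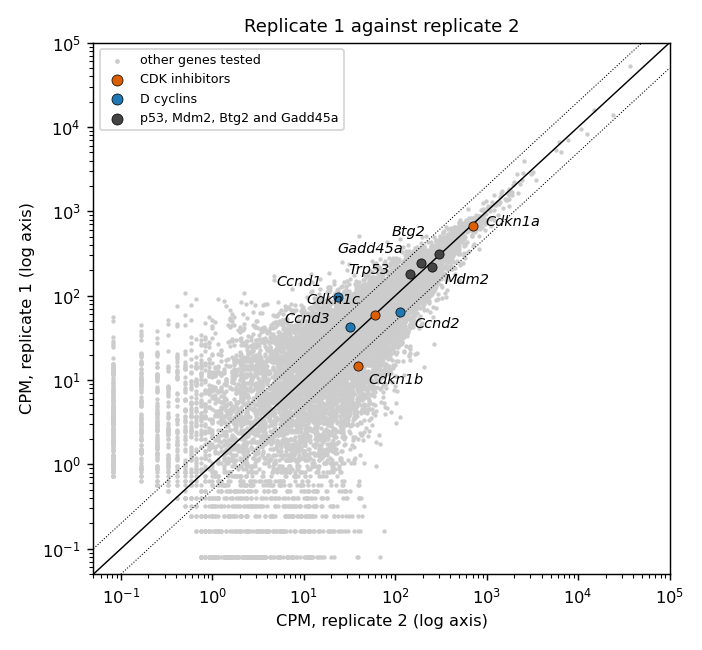
CPM in replicate 1 against replicate 2 (log axes) for the 12218 tested genes with reads in both libraries (grey) and the 10 genes (coloured by role), with equality as a solid line and 2-fold as dotted lines. The p53 gene and its 4 targets lie near the line, and Ccnd1 and Cdkn1b lie outside the dotted lines on opposite sides.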

How the data were processed

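RNA-seq was analysed in 2 libraries of 1 group, so no comparison of conditions was made. The deposited files hold whole-number read counts per gene symbol, 1 file per sample with 23284 symbols, per the file headers. Tools listed in the submitters' processing notes are DESeq, Cufflinks 2.0.2, TopHat2 2.0.4, cutadapt and FastQC, on mm9, with no role. Not given in the sources used here are the counting program, annotation, strand setting and treatment of reads with several matches. Totals were 12495143 and 12043734 counts.

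Counts were scaled to CPM with TMM factors of 0.9956 and 1.0044 (edgeR 4.0.16, R 4.3.3). Log2 ratios used a prior count of 2. RPKM used merged exons of the GENCODE M21 basic transcripts on GRCm38, matched by symbol for 89.7% of symbols, and 25-base words came from the same transcripts; the count files carry no coordinates. Intervals are exact Clopper-Pearson at 95% (scipy 1.17.1, Python 3.11.15). The binomial test (exact, two-sided, Benjamini-Hochberg threshold 0.05 over all genes tested) was also run on simulated counts with counting error only. That run does not cover the wider spread between these libraries.

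The 10 genes and the lists (12 of pathway or housekeeping genes, 7 of cell type markers) were chosen with earlier results of these data known. Named are the 10 genes, up to 4 genes with the highest mean RPKM of each pathway list, the highest marker by CPM, and the 4 genes nearest to Cdkn1a. Outside that rule, genes whose exons overlap one of the 10 are named for that overlap, and others are said to be named after their values were seen. Housekeeping genes were led by Actb, Ywhaz, Rpl13a and Hprt, at 938, 509, 152 and 103 RPKM, and 8 of 8 reached 1 CPM in both libraries. Alternatives were plain totals, DESeq2 1.42.0 size factors, totals without the 10 most abundant symbols, detection limits of 0.5 and 5 CPM, other read filters, a prior count of 0.5, the full annotation, no length scaling, and leaving out each replicate.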

Additional observations from a re-analysis of the deposited data

How the results depend on the processing

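No paired analysis was possible because the series has 1 group. All 10 genes stayed at or above the detection limit, 2 stayed over 2-fold apart and 8 stayed called in each alternative run. The 40 recomputed log2 ratios between libraries kept their sign and call. Several of these runs could not have changed the result. The lowest level, 14.5 CPM of Cdkn1b in replicate 1, lay above every detection limit used, also with either replicate left out. All 10 genes had at least 100 reads over both libraries, so the read filters could not alter the 2-fold count. The prior count does not enter the exact test, so calls with the other prior count are those of the main run. Other scalings and gene models moved 4 levels in CPM and 10 levels per kb beyond 1 replicate SD. The 4 in CPM were Cdkn1a, Cdkn1c, Btg2 and Mdm2, all with totals without the 10 most abundant symbols. That scaling raised every gene by about the same factor, and these 4 had the smallest SDs for their means. Such a count marks close replicates, not sensitive genes. The mean of Cdkn1a went from 685 to 786 CPM and counted as moved, while that of Ccnd1 went from 60.1 to 69.0 CPM and did not. Leaving out a replicate cannot move a mean of 2 libraries by 1 SD, so it says nothing of stability there: the mean of Ccnd1, 60.1 CPM, became 23.6 or 96.7 CPM, and that of Cdkn1b, 26.8 CPM, became 39.1 or 14.5 CPM.

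Ratios between genes depended more on the gene model. The mean log2 ratio of Cdkn1a over Cdkn1c, 3.05 per kb, was 2.73 with the full annotation and 3.53 without length scaling. Without length scaling Cdkn1c over Cdkn1b was 1.30, against 2.53, and summed Cip/Kip over D cyclins 2.05, against 2.71. The ratios that changed sign were those of genes whose order differed between the libraries. A small mean ratio there does not show near-equal levels within a library. Ccnd1 over Ccnd2, 0.01, was -0.83 without length scaling and -1.42 to 1.44 leaving out each replicate. Ccnd1 over Ccnd3, -0.24, was 1.27 with the full annotation, 0.37 without length scaling and -1.04 to 0.56 leaving out each replicate. Ccnd2 over Ccnd3, -0.25, was 1.10, 1.204 and -0.88 to 0.38 in the same settings. Mdm2 over Trp53, -0.22, was 0.20, 0.53 and -0.49 to 0.049. With the full annotation Gadd45a, at 137 and 107 RPKM, was no longer above Btg2, at 112 and 109 RPKM, in replicate 2, and Ccnd3, not Cdkn1b, was the lowest gene, at 4.25 RPKM. The length used accounts for the changes without length scaling and with the full annotation by construction. As to counting error alone, depth limits the 10 genes little, since the lowest count was 181 reads, and the lists more. Such a count does not assure a stable level. Of genes with a mean of 10 to 100 CPM, where Cdkn1b and Ccnd1 lie, 42.9% were over 2-fold apart between the libraries.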

Other observations

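Some genes of the same pathways had reads in 1 library alone, as did 1198 of the 13416 genes tested, and they are named after their values were seen. E2f2 had 0 reads in replicate 1 and 179 in replicate 2, and Chek2 had 49 and 0. Others, named on the same basis, had reads in both but were far apart. Aurka, a mitotic kinase gene, had 90 and 3, Cdk2 467 and 41, and Plk3, a p53 target, 72 and 632.

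Some transcripts that are abundant in most cells were low in both libraries. Gapdh and Ppia, also named after their values were seen, had 65 and 108 reads and 88 and 47, while Actb had 22571 and 21608. Among the 10 genes, 75.0% of the 25-base words of Trp53, 71.9% of those of Ccnd3 and 99.7% of those of Btg2 were found in no other gene. For Cdkn1c the share was 72.0%. How reads with several matches were counted is not given in the sources used here, and its part in these levels was not tested.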
